A study of Mus musculus with 12 samples.

Results

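The integrated stress response is described here in epididymal white adipose tissue (eWAT) of obese mice through 10 genes: Atf4, Atf3, Ddit3, Trib3, Sesn2, Asns, Psat1, Phgdh, Chac1 and Hspa5. They were taken by gene symbol, not by their values, from a table of raw read counts for 49315 Ensembl genes, and all 10 were among the 18702 genes that passed a filter on low counts. RNA of 12 male mice on a 60% fat diet for 12 weeks was sequenced, with 1 library per mouse and 3 mice in each of 4 groups. The flox groups carry the floxed Mir181a2b2 allele on both chromosomes with no Cre recombinase, and the KO groups (Mir181a2b2-/-) lack the Mir181a2b2 locus in every tissue, so that the Mir181a-2 and Mir181b-2 precursors are gone. Mice of each genotype were injected every week into the peritoneum with vehicle or with methotrexate (MTX, an antifolate) at 1 mg/kg, and the groups are called flox vehicle, KO vehicle, flox MTX and KO MTX. The KO is systemic and eWAT is a mixed tissue, so no value here belongs to a single cell type, and ages are given in the methods only as matched.

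The integrated stress response starts when a kinase phosphorylates the translation initiation factor eIF2alpha, in response to misfolded protein in the endoplasmic reticulum (ER), lack of amino acids, lack of heme or viral RNA. Most translation then slows, while the mRNA of the transcription factor ATF4 is translated more, and ATF4 with its partners turns on genes for amino acid synthesis and transport, redox balance and, when stress lasts, cell death. ATF4 is controlled largely through translation, which RNA levels do not report. In adipose tissue of obese animals such stress markers have been described in adipocytes and in immune cells.

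The promoters of 5 members are shown because they hold letters of binding motifs of this pathway. Sequences are those of RefSeq on GRCm38.p6, from 250 bases before to 50 after the annotated start, and 11 promoters matched the 10 genes, with 2 for Psat1. Each runs 5′ to 3′ along the gene's strand, and capitals mark the letters that matched. The motifs searched on both strands were TGATGNAA (the core of the composite site for ATF4 and C/EBP), TGACGTNA (a core for ATF and CREB factors) and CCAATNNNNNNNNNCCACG (the ER stress element). The first 2 share letters but cannot match at the same place. The regions are chr1:191183284-191183583 for Atf3, minus strand, chr6:7693160-7693459 for Asns, minus strand, chr2:119350992-119351291 for Chac1, plus strand, chr2:152344011-152344310 for Trib3, minus strand, and chr2:34771840-34772139 for Hspa5, plus strand.
Atf3: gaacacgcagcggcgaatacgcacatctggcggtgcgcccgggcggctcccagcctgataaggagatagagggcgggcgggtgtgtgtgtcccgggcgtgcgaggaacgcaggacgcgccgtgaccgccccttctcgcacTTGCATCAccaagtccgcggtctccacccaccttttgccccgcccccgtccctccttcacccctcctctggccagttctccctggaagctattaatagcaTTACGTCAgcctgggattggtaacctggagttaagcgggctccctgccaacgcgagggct
Asns: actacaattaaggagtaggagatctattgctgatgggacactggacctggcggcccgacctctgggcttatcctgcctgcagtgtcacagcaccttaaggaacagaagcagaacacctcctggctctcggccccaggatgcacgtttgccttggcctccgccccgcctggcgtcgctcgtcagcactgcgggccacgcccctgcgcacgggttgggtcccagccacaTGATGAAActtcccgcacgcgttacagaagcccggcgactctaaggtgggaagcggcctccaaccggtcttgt
Chac1: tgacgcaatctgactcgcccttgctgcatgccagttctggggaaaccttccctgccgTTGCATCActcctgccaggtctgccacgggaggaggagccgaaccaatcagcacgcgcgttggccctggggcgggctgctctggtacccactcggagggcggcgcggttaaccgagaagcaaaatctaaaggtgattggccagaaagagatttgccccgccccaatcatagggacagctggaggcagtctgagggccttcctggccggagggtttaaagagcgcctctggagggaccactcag
Trib3: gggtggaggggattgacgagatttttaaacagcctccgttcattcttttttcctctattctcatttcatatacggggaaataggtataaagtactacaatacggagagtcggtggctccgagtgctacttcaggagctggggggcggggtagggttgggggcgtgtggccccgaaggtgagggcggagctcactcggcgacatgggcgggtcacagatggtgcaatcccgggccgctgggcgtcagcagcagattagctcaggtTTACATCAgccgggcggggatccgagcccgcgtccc
Hspa5: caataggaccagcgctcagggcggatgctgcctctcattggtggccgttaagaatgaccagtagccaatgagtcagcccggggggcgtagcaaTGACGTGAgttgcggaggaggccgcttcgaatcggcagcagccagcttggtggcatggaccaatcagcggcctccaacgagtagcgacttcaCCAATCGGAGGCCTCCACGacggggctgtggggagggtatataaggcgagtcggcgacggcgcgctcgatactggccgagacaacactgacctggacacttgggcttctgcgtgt

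TGATGNAA was found in 4 of the 11 member promoters, at 110 bases before the start in Atf3, 23 in Asns and 193 in Chac1, and at 14 bases after it in Trib3. Of all 32851 promoters of the same length, 3.97% held it. TGACGTNA lay 10 bases before the start of Atf3 and 157 before that of Hspa5, against 2.93% of all promoters. The ER stress element lay 65 bases before the start of Hspa5, which encodes the main ER chaperone, and 0.119% of all promoters held it. The windows of Atf4, Ddit3, Phgdh, Psat1 and Sesn2 held none of these letters. A match is a description of the sequence, not a bound site.

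Library depth was 19495310 to 23976469 counts. Levels are given as CPM, the counts of a gene per 1000000 counts of the library after scaling with TMM factors, and differences come from edgeR's quasi-likelihood fit to all 12 libraries, with p-values adjusted by the Benjamini-Hochberg method across all 18702 genes. A call needed a change of 1.5-fold or more together with an adjusted p under 0.1. The precursors at the deleted locus were at 0 counts, apart from 2 counts of Mir181a-2 in 1 flox MTX library, so these data do not check the genotype. Adipocyte markers were present in every library, led by Fabp4. Before the results, 2 features of the libraries have to be stated. First, macrophage markers (15 genes, all detected in every library) summed to 894 to 1575 CPM in flox vehicle, 6881 to 13488 in KO vehicle and 9354 to 16411 in KO MTX, while flox MTX replicates 1, 2 and 4 stood at 3703, 7675 and 1000 CPM. Second, RNA of the neighbouring reproductive tract was high in flox vehicle: markers of epididymis (24 genes) summed to 6887, 19281 and 2310 CPM in replicates 1, 3 and 4, and testis germ cell markers (12 genes) to 232 to 646 CPM. In KO vehicle these sums were 7.79 to 19.3 and 3.37 to 4.78 CPM, in KO MTX 1.77 to 17.9 and 2.12 to 16.3 CPM, and in flox MTX 6.52 to 654 and 2 to 3.38 CPM. The most abundant gene of the macrophage list, Lyz2, stood at 241 to 503 CPM in flox vehicle and 1552 to 2396 in KO vehicle, that of the epididymis list, Crisp1, at 1189 to 9958 and 3.51 to 5.92 CPM, and that of the testis list, Prm2, at 53.2 to 275 and 0.193 to 1.07 CPM. Among the defining epididymis genes, Defb15, Defb21 and Sva were at 0 in every KO vehicle library. The part of either feature in any difference between the groups was not tested, and the values given below beside these differences are descriptions. Among the other lists, fibroblast markers summed to 2138 to 3828 CPM in flox vehicle and 6483 to 9633 in KO vehicle, endothelial markers to 428 to 662 and 922 to 1445 CPM, adipocyte markers to 20089 to 48091 and 19623 to 32307 CPM, mesothelial markers to 95 to 168 and 143 to 219 CPM, and B cell and plasma cell markers to 59.8 to 104 and 93.4 to 163 CPM.

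Per kilobase of exon, the 10 genes spanned a wide range of levels. Averaged over the 12 libraries, Hspa5 stood highest at 192 CPM per kb, followed by Phgdh at 133, Atf4 at 63.8, Psat1 at 48.9 and Atf3 at 48.3. Ddit3 (19.1), Asns (13.3), Sesn2 (11.5), Trib3 (4.54) and Chac1 (3.96 CPM per kb) followed. The genes differed as much in how far they varied between mice. The highest library was 43.6 times the lowest for Atf3 and 11.3 times for Phgdh, but 1.5 times for Atf4 and 1.9 times for Ddit3.

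**Figure D1:**
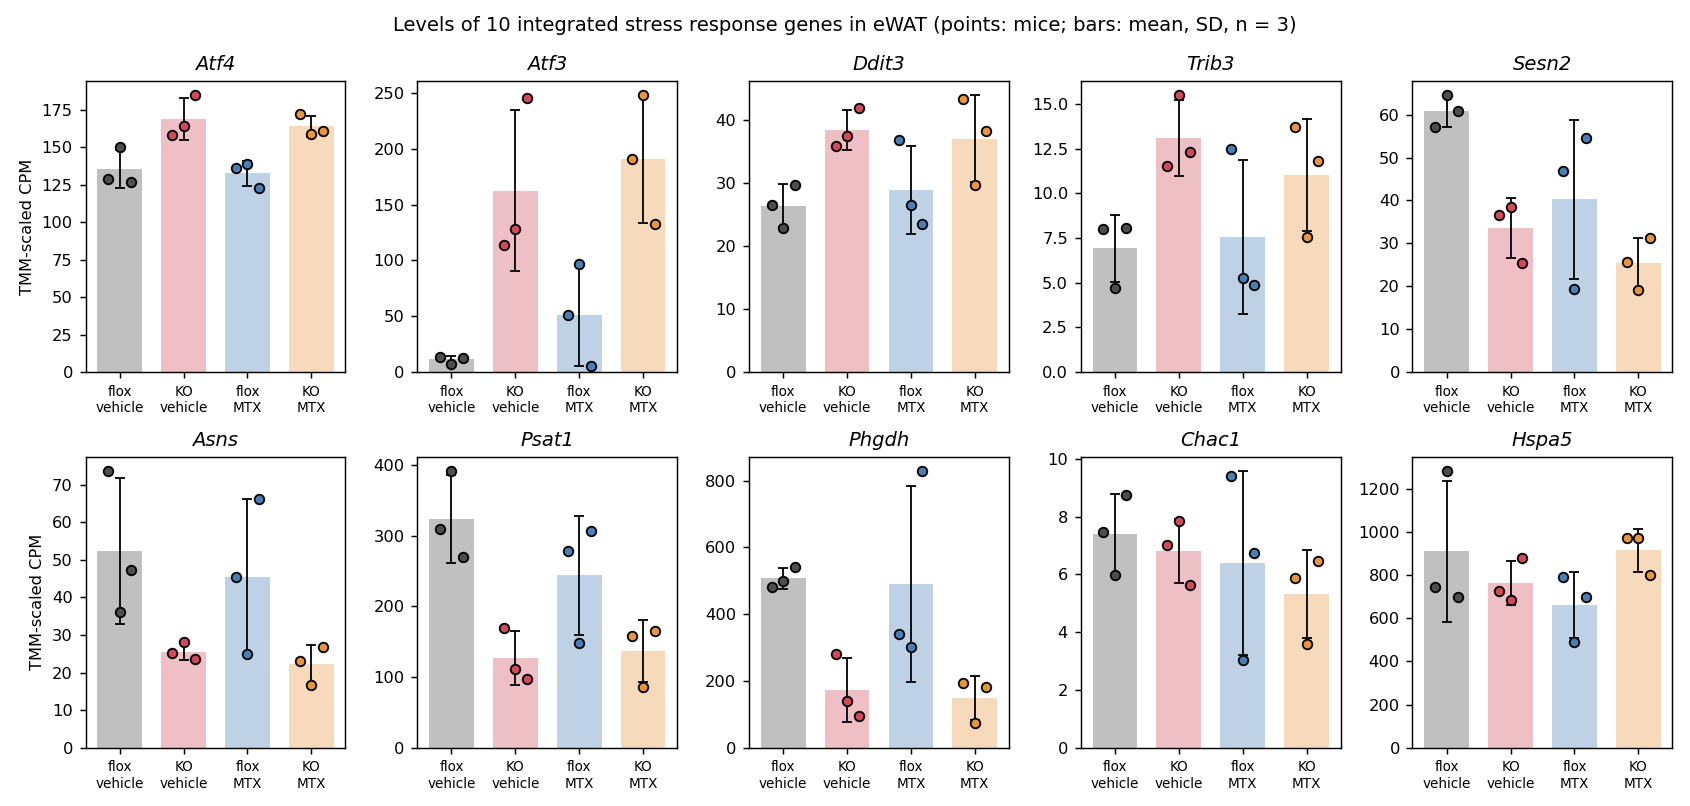
Level of each of the 10 genes in TMM-scaled CPM (vertical axis, from 0) in the 4 groups. Points are mice, and bars with whiskers are the mean and SD of 3 mice. Atf3 stands between 114 and 248 CPM in the 6 KO mice and at or below 97 in the 6 flox mice, and Phgdh stands at or above 302 CPM in the flox mice and at or below 282 in the KO mice.

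The comparison of KO with flox mice under vehicle asks what loss of the Mir181a2b2 locus does in obese mice without the drug. The response did not move as a block: the transcription factor Atf3 and the pseudokinase Trib3 rose in KO mice, while the amino acid genes Asns, Psat1 and Phgdh and the stress regulator Sesn2 fell. Of the 10 genes, 2 were called higher and 4 lower, beside 13.9% of all genes called higher and 17.8% called lower. The groups of 3 mice did not overlap for 8 of the 10, against 48.1% of all genes. In bulk tissue, fewer cells of a type and less RNA per cell cannot be told apart, which holds for every difference below.

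**Figure D2:**
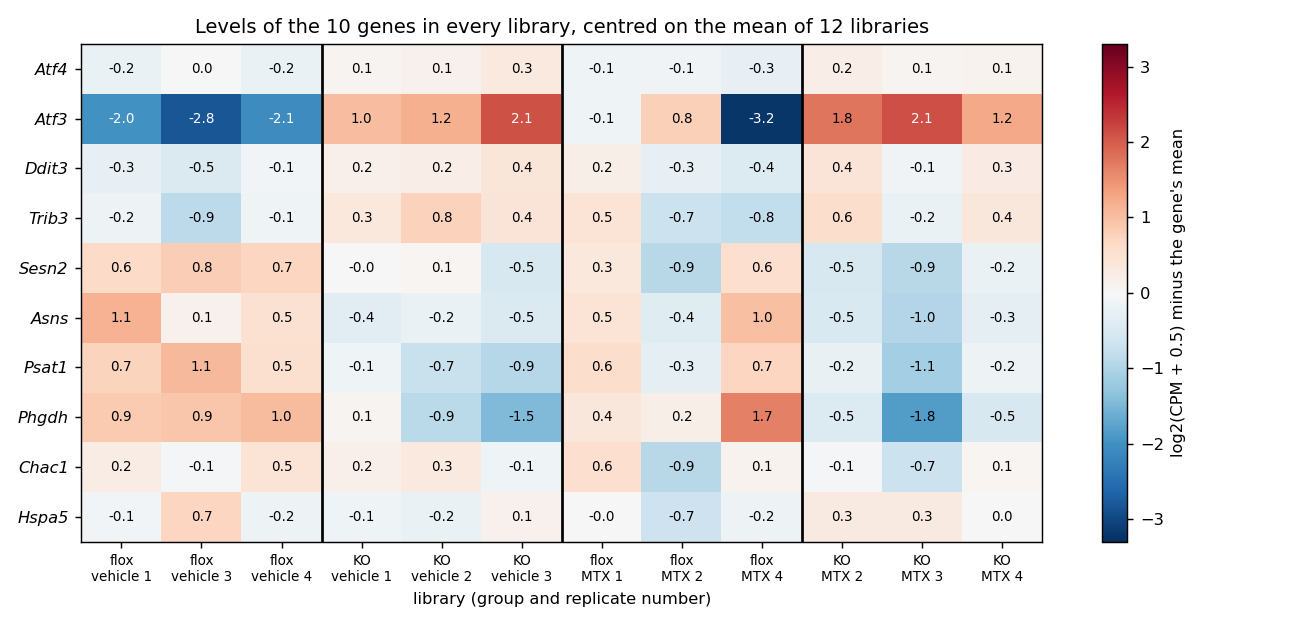
Centred log2(CPM + 0.5) of the 10 genes (rows) in the 12 libraries (columns, by group and replicate number), as the difference from the gene's mean over the 12. Red is above and blue below the mean. Atf3 runs from -3.2 to 2.1, and Asns, Psat1 and Phgdh are below their means in KO MTX replicates 2, 3 and 4, where Atf3 is above its own.

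Among the transcription factors, Atf4 was the steadiest. Atf4 (chr15:80255184-80257541, plus strand) stood at 129, 150 and 127 CPM in flox vehicle and at 158, 164 and 185 in KO vehicle. All KO vehicle libraries lay above all flox vehicle libraries, by a narrow margin. The log2 fold change was 0.32 (SE 0.12, adjusted p = 0.0741 in edgeR), which is under the fold limit, so Atf4 was not called. Under MTX the levels were 136, 139 and 123 CPM in flox and 172, 159 and 161 in KO mice. Again the groups did not overlap, with a log2 fold change of 0.31 (SE 0.12, edgeR adjusted p = 0.163). MTX moved Atf4 by -0.029 in flox and -0.04 in KO mice on the log2 scale, both with an SE of 0.12. The order of the mean levels was KO vehicle, KO MTX, flox vehicle and flox MTX, and within each genotype the neighbours overlapped.

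Atf3, a repressor and activator of the ATF family that is induced by many stresses, differed most. Atf3 (chr1:191170296-191218039, minus strand) stood at 13.7, 7.51 and 13 CPM in flox vehicle and at 114, 128 and 245 in KO vehicle, from 191 to 315 and 2260 to 5228 counts. The lowest KO vehicle library was therefore far above the highest flox vehicle library, and the fold was 14.2 (log2 fold change 3.83, SE 0.78, adjusted p = 0.00525 in edgeR). This call was kept under all 23 alternative settings, with log2 fold changes of 3.29 to 4.05. Under MTX, flox mice stood apart from each other at 51.4, 97 and 5.69 CPM in replicates 1, 2 and 4, while KO mice stood at 191, 248 and 133 CPM. The KO MTX libraries were all above the flox MTX libraries, but with this spread the log2 fold change of 1.89 (SE 0.71, 95% interval 0.32 to 3.46) had an adjusted p of 0.148 in edgeR.

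Beside Atf3, the macrophage list moved in the same libraries. All 15 of its genes were called higher in KO vehicle than in flox vehicle, against 13.9% of all genes. The list was not alone: 9 of 10 endothelial and 7 of 8 fibroblast markers were called higher there too. For mesothelial markers it was 1 of 6, for B cell and plasma cell markers 2 of 11 and for adipocyte markers 0 of 12. The flox MTX library with the lowest Atf3 was also the one with the lowest macrophage sum (replicate 4, 1000 CPM). By the size of the difference between centred log2 levels over the 12 libraries, as a root mean square, the 3 genes most like Atf3 among 11830 were Cd68 (0.12), Trem2 (0.21) and Hk3 (0.214). Atf3 itself varied with an SD of 1.9 over those libraries. Cd68 encodes a lysosomal protein of macrophages and Trem2 a lipid receptor of macrophages, and Cd68 stood at 37.1 CPM on average in flox vehicle and 516 in KO vehicle. Cd68 and Trem2 are widely used as macrophage markers, and the likeness is a description over 12 libraries that share the group differences. As a ratio chosen after the values were seen, Atf3 had 8.44 to 11.6 counts per 1000 counts of the macrophage list in flox vehicle, 16.6 to 18.7 in KO vehicle, 4.67 to 12.9 in flox MTX and 14.4 to 16.9 in KO MTX. The ratio was thus higher in every KO library than in every flox library, over a much smaller range than the level of Atf3 itself. The part of macrophage number, or of the other cell types, in the rise of Atf3 was not tested.

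**Figure D3:**
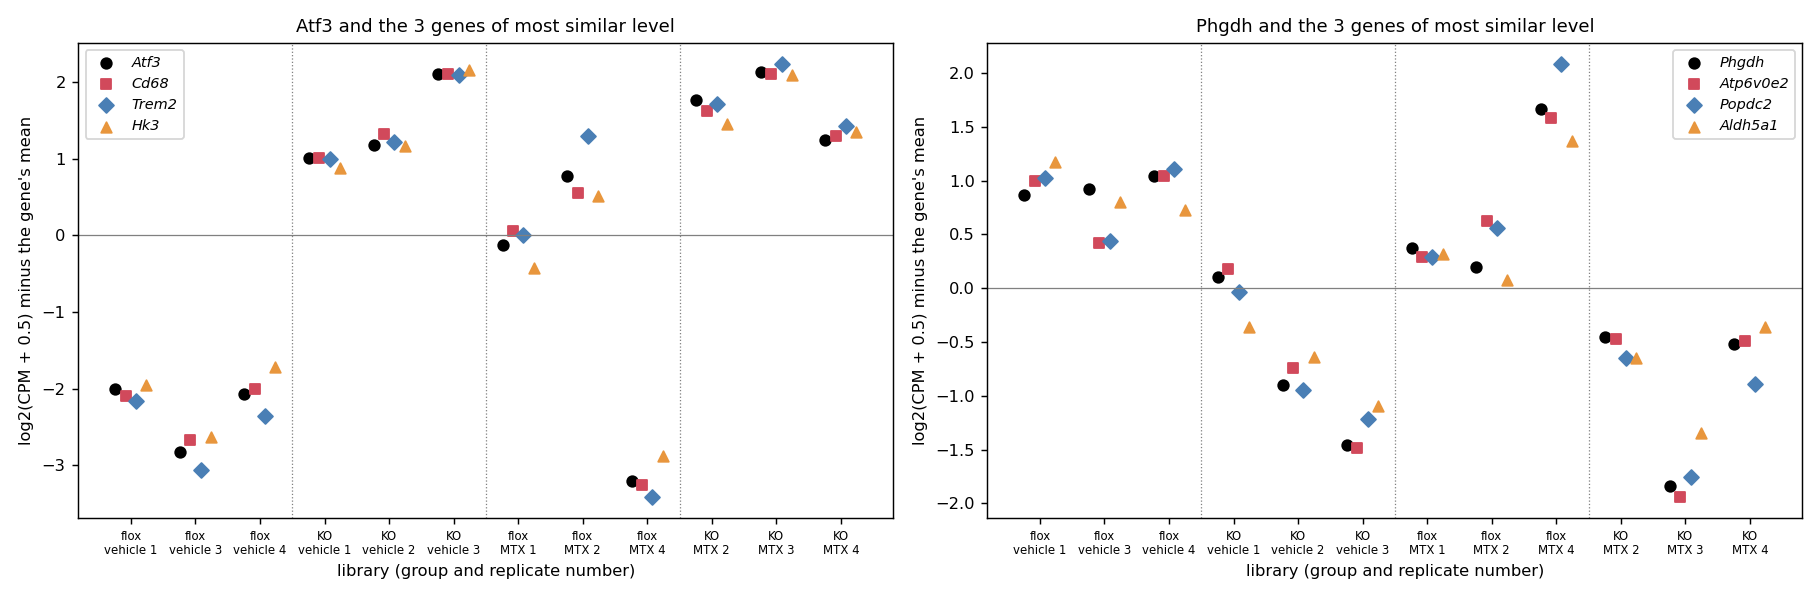
Centred log2(CPM + 0.5) over the 12 libraries (horizontal axis, by group and replicate number) for Atf3 (left) and Phgdh (right), each with the 3 genes of most similar level. The 3 genes were chosen for their likeness, so closeness of the symbols follows from the choice. In flox MTX replicate 2 the left panel still runs from 0.51 to 1.29. In flox MTX replicate 4 the right panel runs from 1.37 to 2.08. Flox MTX replicate 4 is the lowest library for Atf3 and the highest for Phgdh.

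Ddit3, which encodes the pro-apoptotic factor CHOP, was higher in KO vehicle without being called, as was Atf4. Ddit3 (chr10:127290774-127296288, plus strand) stood at 26.5, 22.9 and 29.7 CPM in flox vehicle and at 35.8, 37.4 and 41.9 in KO vehicle. The groups did not overlap, with a log2 fold change of 0.54 (SE 0.19, adjusted p = 0.0558 in edgeR), just under the fold limit of 0.58 on that scale. Under MTX it stood at 36.8, 26.5 and 23.4 CPM in flox and 43.3, 29.6 and 38.2 in KO mice, and the groups overlapped (log2 fold change 0.36, 95% interval -0.067 to 0.78). Its level is uncertain, since the annotation places the opposite strand gene Mars, a methionyl-tRNA synthetase, and a second entry named Ddit3 over part of the same locus and the strand setting of the counting is not stated. Among the 10 genes, the pairs with the most similar centred levels were Atf4 and Ddit3 (root mean square difference 0.215) and Ddit3 and Trib3 (0.279). Over the 12 libraries Atf4 itself varied with an SD of 0.179, Ddit3 of 0.303 and Trib3 of 0.546. The first difference was thus no smaller than the spread of Atf4, and genes that vary little lie close together by this measure.

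Trib3 and Sesn2 are targets of the response that restrain growth signalling. Trib3, a pseudokinase induced by ATF4 and CHOP that inhibits AKT, stood at 7.98, 4.72 and 8.03 CPM in flox vehicle and 11.5, 15.5 and 12.3 in KO vehicle. The groups did not overlap, and Trib3 rose with a log2 fold change of 0.92 (SE 0.38, adjusted p = 0.0883 in edgeR). That call sits near the limit and was lost under 8 of 23 alternatives, among them leaving out flox vehicle replicate 1 or 3, any KO vehicle library or KO MTX replicate 4, with log2 fold changes between 0.71 and 1.05. Under MTX the flox libraries at 12.5, 5.27 and 4.88 CPM overlapped with the KO libraries at 13.7, 7.58 and 11.8 CPM (log2 fold change 0.54, 95% interval -0.28 to 1.37). Trib3 lies at chr2:152337422-152344032 on the minus strand.

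Sesn2, a leucine sensor that restrains mTORC1, went the other way. Sesn2 (chr4:132492032-132510501, minus strand) stood at 57.2, 64.6 and 60.8 CPM in flox vehicle, a narrow range, and at 36.6, 38.4 and 25.5 in KO vehicle. Every KO vehicle library was lower, with a log2 fold change of -0.86 (SE 0.32, adjusted p = 0.0674 in edgeR). The call was lost under 8 of 23 alternatives, including leaving out any flox vehicle library or KO vehicle replicate 1 or 3, with log2 fold changes of -0.96 to -0.69. Under MTX the flox libraries spread over 46.9, 19.3 and 54.6 CPM and overlapped with KO at 25.6, 19.2 and 31.2 CPM (log2 fold change -0.67, 95% interval -1.38 to 0.046). An antisense gene of the annotation, Gm12981, overlaps Sesn2.

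The amino acid genes Asns, Psat1 and Phgdh are standard ATF4 targets, and all 3 were lower in KO vehicle than in flox vehicle while Atf4 was not. Asns, asparagine synthetase (chr6:7675169-7693254, minus strand), stood at 73.7, 36.1 and 47.2 CPM in flox vehicle and at 25.2, 28 and 23.5 in KO vehicle. The flox libraries were spread and the KO libraries close together, without overlap (log2 fold change -1.03, SE 0.34, adjusted p = 0.0424 in edgeR). Leaving out flox vehicle replicate 1, the highest library, or KO vehicle replicate 1 or 3 ended the call, and the log2 fold change ranged from -1.24 to -0.70 over all alternatives. Under MTX the difference was as large, at -1.03 (SE 0.34, 95% interval -1.79 to -0.28), with 45.5, 24.9 and 66.1 CPM in flox and 23.1, 16.6 and 26.8 in KO mice. There the groups overlapped and the adjusted p was 0.122 in edgeR.

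Psat1 encodes the aminotransferase of serine synthesis. Psat1 (chr19:15904678-15947337, minus strand) stood at 309, 392 and 270 CPM in flox vehicle and at 170, 112 and 97.6 in KO vehicle. No library overlapped, and the log2 fold change was -1.35 (SE 0.33, adjusted p = 0.0117 in edgeR), a call kept under all 23 alternatives with values of -1.60 to -1.19. The order of the flox vehicle libraries was that of their epididymis sums, and without flox vehicle replicate 3 the call stayed. All flox vehicle libraries hold reproductive tract RNA, so leaving out a single library cannot separate its part, which was not tested. Under MTX the levels were 278, 148 and 306 CPM in flox and 158, 86.2 and 165 in KO mice, which overlapped (log2 fold change -0.84, SE 0.33, edgeR adjusted p = 0.156). A processed pseudogene, Gm3329, lies within the gene on the other strand.

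Phgdh encodes the enzyme of the first step of serine synthesis and had the largest fall. Phgdh (chr3:98313170-98339990, minus strand) stood at 481, 499 and 541 CPM in flox vehicle, within a narrow range, and at 282, 141 and 95.6 in KO vehicle. Even the highest KO vehicle library was well below the lowest flox vehicle library (log2 fold change -1.55, SE 0.50, adjusted p = 0.0374 in edgeR). The call was lost when KO vehicle replicate 2 or 3 was left out, and the log2 fold change ranged from -2.07 to -1.25. Under MTX, Phgdh stood at 340, 302 and 830 CPM in flox and at 193, 73.3 and 183 in KO mice. The groups did not overlap, and the log2 fold change was -1.71 (SE 0.50, 95% interval -2.81 to -0.62, edgeR adjusted p = 0.11). The testis sums of the flox MTX libraries were 2 to 3.38 CPM and their epididymis sums 6.52 to 654 CPM, against 2.12 to 16.3 and 1.77 to 17.9 CPM in KO MTX, and the part of that RNA in the difference was not tested.

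Beside these falls, 3 of 12 adipocyte markers (25%, against 17.8% of all genes) were called lower in KO vehicle. Only 2 of the 12 had a positive log2 fold change, and the median of the 12 was -0.75, beside -0.056 for all genes. Under MTX none of the 12 was called in edgeR, but all were lower in KO mice (median log2 fold change -1.25, 9 with an unadjusted p under 0.05), and their sums of 10870 to 25632 CPM in KO MTX and 29699 to 42541 CPM in flox MTX did not overlap. As a ratio chosen after the values were seen, Phgdh had 10.2 to 26.9 counts per 1000 counts of the adipocyte list in flox vehicle and 5.01 to 8.81 in KO vehicle. Under MTX the ratio was 7.51 to 16 in flox and 7.17 to 8.1 in KO mice, which overlapped. For Asns the ratio was 1.28 to 1.95 in flox vehicle and 0.787 to 1.23 in KO vehicle, against 0.851 to 1.27 in flox MTX and 0.973 to 1.63 in KO MTX. For Psat1 it was 6.56 to 21.1 and 4.56 to 5.32 under vehicle, and 5.08 to 6.15 and 6.51 to 8.44 under MTX, where it was higher in KO mice. For Sesn2 it was 1.21 to 3.48 and 1.14 to 1.56 under vehicle, which overlapped. Under MTX it was 0.661 to 1.05 and 1.08 to 1.88, again higher in KO mice. Flox vehicle replicate 3 had the lowest adipocyte sum of its group, 20089 CPM, which raises its ratios. The part of adipocyte number in the falls was not tested. The genes most similar in level were Uck1 (root mean square difference 0.133), Csad and Dtx2 for Asns, Exd1 (0.147), Lyplal1 and Entpd6 for Psat1, and Atp6v0e2 (0.204), Popdc2 and Aldh5a1 for Phgdh.

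Chac1 and Hspa5, a glutathione-degrading enzyme and the ER chaperone BiP, were the 2 genes whose vehicle groups overlapped. Chac1 (chr2:119351229-119354381, plus strand) stood at 7.46, 5.98 and 8.73 CPM in flox vehicle and 7, 7.83 and 5.62 in KO vehicle. Its log2 fold change was -0.11 with a 95% interval of -0.93 to 0.70, so changes within that range remained compatible with these data. Under MTX it stood at 9.4, 3.04 and 6.75 CPM in flox and 5.87, 3.6 and 6.47 in KO mice, with an interval of -1.09 to 0.55. Hspa5 (chr2:34771970-34777547, plus strand) stood at 745, 1285 and 701 CPM in flox vehicle and 725, 686 and 881 in KO vehicle. Flox vehicle replicate 3, the library with the highest epididymis sum, was the highest of all 12. With it the log2 fold change was -0.25 (95% interval -0.83 to 0.33) and without it 0.08. Under MTX Hspa5 stood at 791, 491 and 699 CPM in flox and 974, 971 and 799 in KO mice. The groups were separated by a small margin, with a log2 fold change of 0.47 (95% interval -0.11 to 1.05, edgeR adjusted p = 0.293). The gene most similar to Hspa5 was Manf (root mean square difference 0.138), which encodes a secreted protein induced by ER stress.

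The comparison of KO with flox mice under MTX asks whether the genotypes still differ when both receive the drug. None of the 10 genes was called in edgeR, as for all genes (0% called higher and 0% lower). At an unadjusted p under 0.05 there were 5 of 10, where 24.5% of all genes passed. DESeq2 called 4, namely Atf3, Asns, Psat1 and Phgdh, and 16.8% of all genes to which it gave an adjusted p. The groups did not overlap for 4 genes, Atf4, Atf3, Phgdh and Hspa5, against 26.8% of all genes. The sign of the difference was the same under MTX as under vehicle for 9 of the 10 genes, the exception being Hspa5, which was lower in KO vehicle and higher in KO MTX without being called in either. Leaving out flox MTX replicate 2, whose macrophage sum was the highest of its group, gave 5 calls: Atf3 at 2.73 on the log2 scale, Sesn2, Asns at -1.33, Psat1 at -1.10 and Phgdh at -1.97. In that fit 20.8% of all genes were called too, so calls appeared across the whole table and not in these genes alone.

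**Figure D4:**
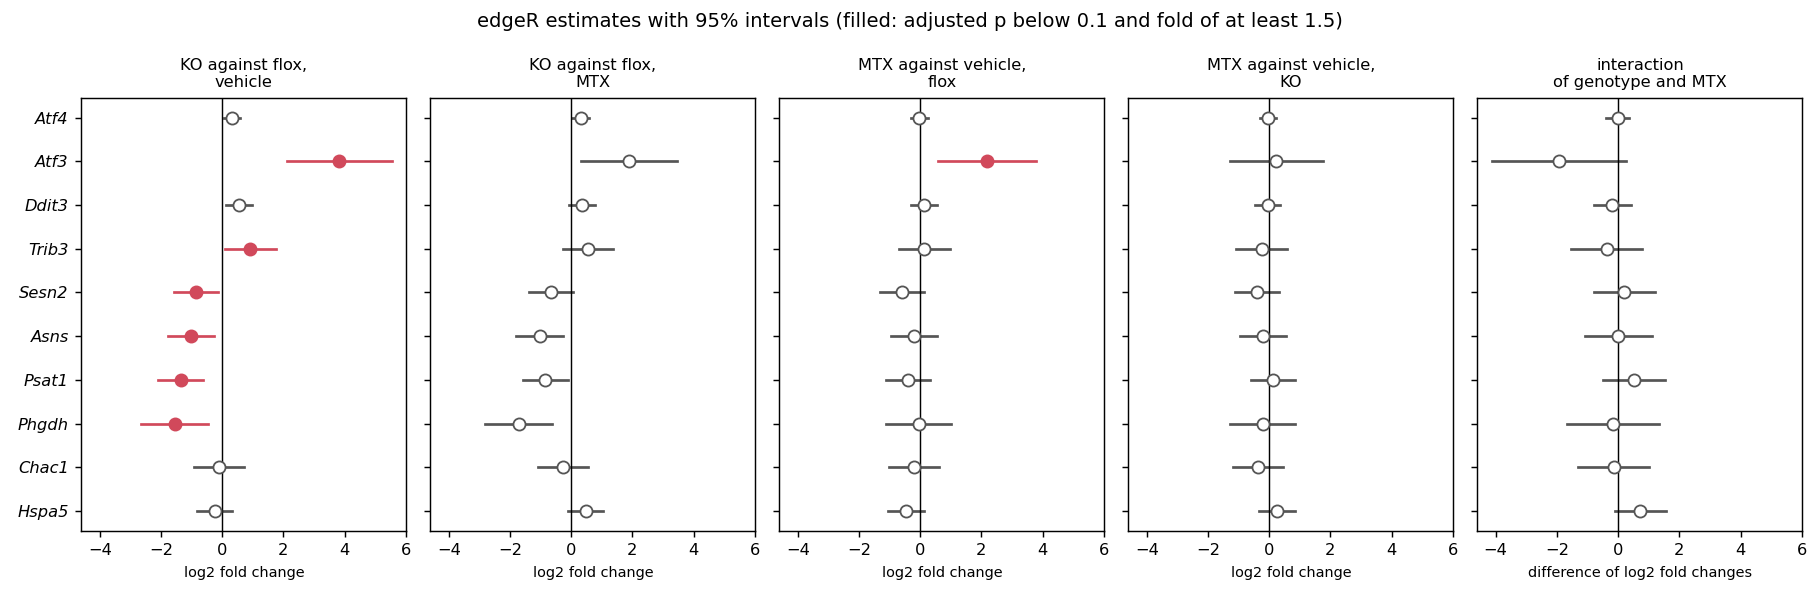
Log2 fold changes from edgeR (horizontal axis) of the 10 genes in the 4 comparisons, and the difference of log2 fold changes for the interaction, each with its 95% interval. Filled red symbols are called genes: 6 under vehicle, none in KO against flox under MTX, Atf3 alone for MTX in flox mice, and none for MTX in KO mice or the interaction.

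In flox mice, MTX against vehicle asks what the drug does when the locus is intact. Atf3 rose and was the only member called, with a log2 fold change of 2.17 (SE 0.73, adjusted p = 0.0591 in edgeR), which is 1 of 10 genes higher and 0 lower beside 8.09% and 16.1% of all genes. The direction was not shared by all mice. Replicates 1 and 2 at 51.4 and 97 CPM were above every flox vehicle library, and replicate 4 at 5.69 CPM was below every one, so the groups overlapped. The macrophage sums of these libraries were 3703, 7675 and 1000 CPM against 894 to 1575 CPM in flox vehicle, and 13 of the 15 macrophage markers were called higher. Other lists moved as well in flox MTX: 5 of 6 mesothelial markers (sums of 200 to 453 CPM), 6 of 11 B cell and plasma cell markers (148 to 1359 CPM) and 4 of 8 fibroblast markers (3370 to 5428 CPM) were called higher. The part of these cell types in the rise of Atf3 was not tested. The call of Atf3 was lost in 7 of 23 alternatives, among them leaving out flox vehicle replicate 1 or 3 or flox MTX replicate 2, with log2 fold changes of 1.34 to 2.71. Sesn2 was the only member whose groups did not overlap, against 28.3% of all genes, but its log2 fold change of -0.60 (95% interval -1.30 to 0.11) had an adjusted p of 0.216 in edgeR. The remaining 8 genes had intervals that included 0, and Phgdh moved by -0.047 with an interval of -1.11 to 1.02. With library size as the only scaling, the median log2 fold change of all genes in this comparison moved from 0.051 to -0.153 and the calls over all genes from 1513 higher and 3015 lower to 766 higher and 3607 lower. Sesn2 (-0.85) and Hspa5 (-0.70) were then called too.

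In KO mice, MTX against vehicle asks whether the drug acts without the locus. None of the 10 genes was called, and edgeR called 0% of all genes in either direction. None of the 10 had an unadjusted p under 0.05 in edgeR, against 7.97% of all genes, and DESeq2 called none of them and 1.51% of all genes. The groups overlapped for all 10, against 20.7% of all genes without overlap. The log2 fold changes ran from -0.40 for Sesn2 (95% interval -1.11 to 0.31) to 0.26 for Hspa5 (-0.32 to 0.84), and for Atf3 the interval was -1.28 to 1.75. The data of 3 mice per group were compatible with changes within these intervals and do not show that the drug had no effect.

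The interaction asks whether the effect of MTX differed between the genotypes. None of the 10 genes was called in edgeR, which called 0.898% of all genes positive and 0.0909% negative. None of the 10 had an unadjusted p under 0.05, against 15% of all genes, and DESeq2 called none of them and 6.68% of all genes. The nearest were Atf3, whose MTX effect was lower in KO than in flox mice by a difference of -1.94 on the log2 scale (SE 0.99, edgeR adjusted p = 0.386), and Hspa5 at 0.72 (SE 0.37, edgeR adjusted p = 0.391). So the call of Atf3 for MTX in flox mice and its absence in KO mice were not shown to differ.

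The wider pathway was followed with a list of 96 further genes of the stress response in 8 roles, of which 95 were tested. In KO against flox mice under vehicle, 10 were called higher and 13 lower, which is 10.5% and 13.7% of those tested against 13.9% and 17.8% of all genes. The median log2 fold change was 0.0096, beside -0.056 for all genes. The shares were thus no larger than in the background, and the list as a whole had no direction. By role, the calls were 3 higher and 0 lower of 7 transcription factors, 0 and 4 of 11 amino acid transporters, 2 and 5 of 12 genes of amino acid and one-carbon synthesis, 0 and 1 of 13 aminoacyl-tRNA synthetases, 0 and 2 of 23 ER chaperones and other genes of the unfolded protein response, 4 and 1 of 14 other targets of ATF4 and CHOP and 1 and 0 of 8 eIF2alpha kinases and phosphatase subunits. None of 7 mitochondrial stress genes was called in edgeR, with 1 at an unadjusted p under 0.05.

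**Figure D5:**
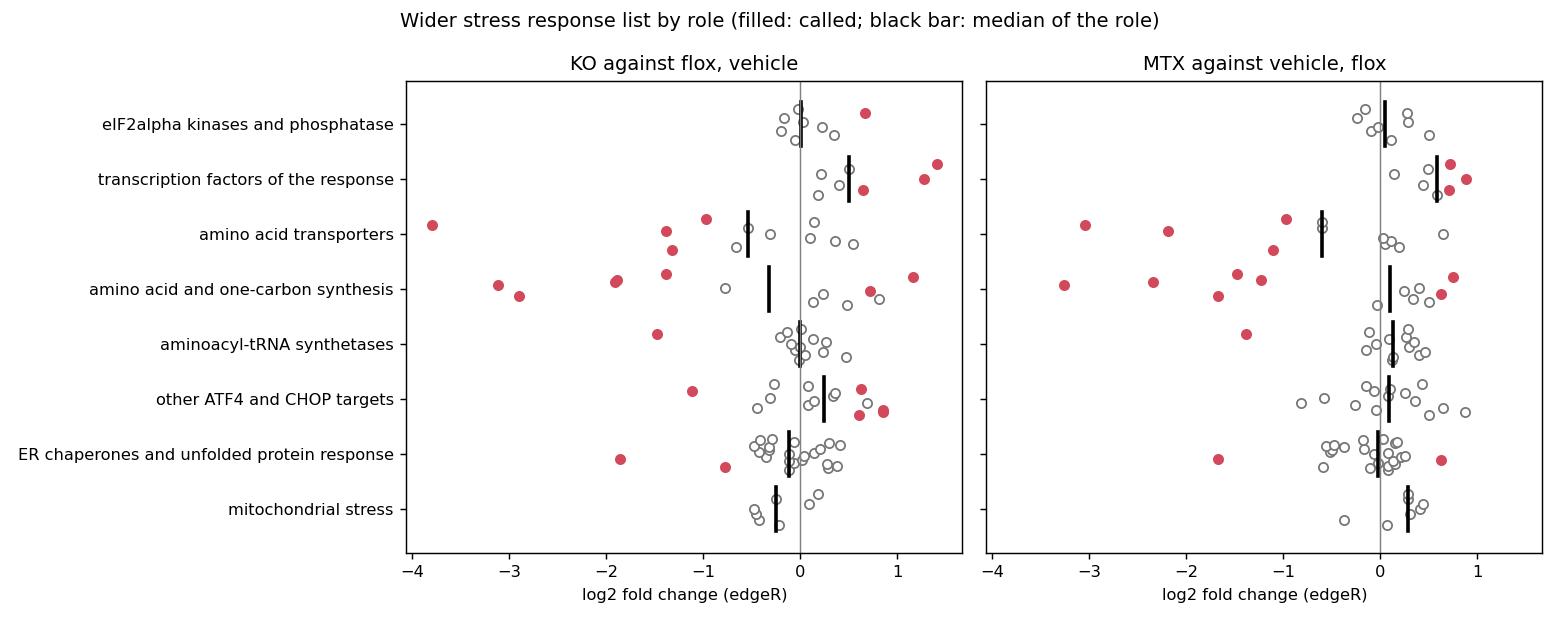
Log2 fold changes from edgeR (horizontal axis) of the 95 tested genes of the wider list, by role (vertical axis), for KO against flox under vehicle and for MTX against vehicle in flox mice. Filled symbols are called genes and black bars the median of a role. The calls beyond -1 lie in the transporters, the amino acid and one-carbon genes, Wars1, Ern1 and, in the left panel, Stc2.

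The transcription factors that rose were Jdp2, Tfeb and Cebpb. Jdp2, a partner of the ATF family, stood at 12.9, 12.2 and 13.2 CPM in flox vehicle and at 27.8, 29.9 and 34.5 in KO vehicle, with no overlap (log2 fold change 1.27, SE 0.13, adjusted p = 0.00271 in edgeR). Tfeb, the regulator of lysosome genes, stood at 16.5, 13.8 and 15.4 CPM and at 34.4, 38 and 49.3 (1.41, SE 0.23, adjusted p = 0.00313 in edgeR). Pycr1, of proline synthesis, rose as well, at 2.86, 3.78 and 3.6 CPM in flox vehicle and 6.45, 6.73 and 9.7 in KO vehicle (1.16, edgeR adjusted p = 0.00752). Jdp2 (0.88, edgeR adjusted p = 0.0042) and Tfeb (0.72, edgeR adjusted p = 0.0444) were also higher in flox MTX than in flox vehicle. All 3 flox MTX libraries exceeded the flox vehicle libraries for both genes. In replicates 1, 2 and 4 of flox MTX, Tfeb stood at 24.5, 33.2 and 17.8 CPM and Jdp2 at 22.6, 26.5 and 21.5. The macrophage sums of these libraries were 3703, 7675 and 1000 CPM. The part of macrophage number, of other cell types or of reproductive tract RNA in the rises of Jdp2 and Tfeb was not tested.

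The genes that fell most were Slc7a11, the cystine transporter, at -3.80 (SE 0.70, adjusted p = 0.00423 in edgeR), and the folate enzyme Mthfd1l at -3.12 (SE 0.58, adjusted p = 0.00432). Cth, cystathionine gamma-lyase, followed at -2.90, Mthfd2 at -1.91, Psph, the last enzyme of serine synthesis, at -1.89 and Ern1, the ER stress sensor IRE1, at -1.86. Replicates 1, 3 and 4 of flox vehicle had 60.2, 134 and 21.4 CPM of Mthfd1l, which stood at 7.51 to 9.79 CPM in KO vehicle. Slc7a11 stood at 12.5, 34.1 and 7.53 CPM in flox vehicle and Cth at 39, 107 and 26.7. For these 3 genes the order of the flox vehicle libraries was that of their epididymis sums of 6887, 19281 and 2310 CPM. The same order held for Psph, Mthfd2, Ern1, Slc1a4, Slc6a9 and Wars1, which were all called lower in KO vehicle. Among the members it held for Atf4, Psat1 and Hspa5, of which Atf4 was higher in KO vehicle. The other members, among them Phgdh at 481, 499 and 541 CPM in the same libraries, did not follow that order. With 3 libraries such an order can arise by chance, and the share of all genes that follow it was not counted.

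The same flox vehicle libraries serve as controls for MTX in flox mice, so the calls of both comparisons are not independent. There 6 of the 95 genes were called higher and 11 lower (6.32% and 11.6%, against 8.09% and 16.1% of all genes), and the median log2 fold change was 0.084, beside 0.051 for all genes. Mthfd1l fell to 3.31 to 10.5 CPM (log2 fold change -3.26, edgeR adjusted p = 0.00626). Slc7a11 (-3.04, adjusted p = 0.0132), Mthfd2 (-2.34, adjusted p = 0.00898), the glycine transporter Slc6a9 (-2.19, adjusted p = 0.0072) and Psph (-1.23, adjusted p = 0.0584) fell as well. Glul, glutamine synthetase, rose by 0.62 to between 1515 and 1796 CPM, and Edem1, of ER-associated degradation, rose by 0.62 as well. Without flox vehicle replicate 3 and flox MTX replicate 1, the libraries with the highest epididymis sums of their groups, 8 genes were called for MTX in flox mice in place of 17, and 20 in place of 23 for KO against flox under vehicle. Over all genes, the calls went from 4528 to 2448 and from 5924 to 4928 in the same fits. The part of reproductive tract RNA in these falls was not tested, since all flox vehicle libraries contain it.

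In KO against flox mice under MTX, none of the 95 genes was called in edgeR, 23 had an unadjusted p under 0.05 and DESeq2 called 13. Over all genes these shares were 24.5% and 16.8%, so those of the list were no larger. The smallest p values were those of Sdf2l1, an ER chaperone, at 49.1 to 73.4 CPM in KO and 22.3 to 33 in flox mice (log2 fold change 1.20, edgeR adjusted p = 0.104), of Tfeb (0.83, adjusted p = 0.104) and of Jdp2 (0.47, adjusted p = 0.106). For MTX in KO mice none was called by either tool and 11 had an unadjusted p under 0.05 (7.97% of all genes did), led by the ER stress sensor Atf6 (0.36, edgeR adjusted p = 0.346), the oxidase Ero1a (0.52, adjusted p = 0.354) and the redox regulator Nfe2l2 (0.46, adjusted p = 0.468). The interaction was called for Mthfd1l at 3.59 and Jdp2 at -0.80 (edgeR adjusted p = 0.097 for each), which is 2.11% of the list against 0.989% of all genes. No gene of the list was called with a minimum of 10 counts per library, at an adjusted p under 0.05, with epididymis and testis genes left out of the scaling or in 10 of the 12 fits that left out 1 library. The Mthfd1l value rests on the flox vehicle libraries, where its level was 21.4 to 134 CPM against 3.31 to 12 CPM in the other 9 libraries.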

How the data were processed

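RNA of eWAT from 12 mice was sequenced, and the deposited values are raw read counts per Ensembl gene. The authors trimmed the reads with Trimmomatic 0.36, aligned them to mm10 with STAR 2.5.2b and counted them with featureCounts of Subread 1.5.2, per the labels and methods. The strand setting and the handling of multimapped reads are not given in the sources used here, and the labels (polyA RNA) and the methods (ribosomal depletion) differ on the library preparation. Groups come from the labels, where nothing beyond the titles names the mouse, so p-values measure the spread between these libraries.

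Counts were fitted in R 4.3.3 with edgeR 4.0.16: filterByExpr by group (18702 of 49315 genes), TMM factors, 1 coefficient per group over 12 libraries, glmQLFit, the quasi-likelihood F-test and Benjamini-Hochberg adjustment. The SE is the absolute log2 fold change divided by the root of F, and 95% intervals use its degrees of freedom. Levels are CPM of the tested genes with TMM factors, and marker sums are shares of all counts. A two-sided exact permutation test of 3 against 3 mice cannot go below 0.1, so it was not used for calls. Depth was 19495310 to 23976469 counts, and counting error is small beside the spread between mice.

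The 10 members were fixed by gene symbol, without a rule on their values. They, the wider stress response list (96 genes, 8 roles) and 8 marker lists were chosen with earlier results of these data known. Named genes were the 10 members, up to 12 called genes of the wider list per comparison with the smallest adjusted p whose groups do not overlap (3 with the smallest p where none was called), the 3 genes most similar to a member by the root mean square difference of centred log2(CPM + 0.5) among genes of at least 5 CPM on average, and the most abundant marker of a list. Genes of the wider list named outside this rule (Cebpb, Stc2) and the ratios to marker lists were chosen after their values were seen. Equal replicate numbers were not treated as pairs in the main fit. The median residual correlation was 0.0353 (-0.273 to 0.254) in the 12 same-numbered pairs of libraries and 0.0112 in 42 other pairs. With so few libraries these values cannot exclude pairing. The paper states that it used littermates matched by cage, but the labels do not link mice. The 12 pairs within groups differed by far more than sampling noise (chi-square per degree of freedom of at least 12.9), so none was a duplicate. The 23 alternatives were DESeq2 1.42.0, other scalings, filters and limits, the replicate block, smaller sets of libraries and leaving out single libraries. The fitting was also run on simulated counts in which a small set of genes was changed in KO vehicle alone. That setting is simpler than these data, so it does not check the calls made here. Gene coordinates follow GENCODE M21 on GRCm38.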

Additional observations from a re-analysis of the deposited data

How the results depend on the processing

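With 3 mice per group, single libraries decided many calls near the limit, while depth did not limit any member, since the lowest count of a member in a library was 67. For KO against flox under vehicle, 6 of the 10 genes were called, 3 with the replicate block and 2 to 6 when 1 library was left out (2 without KO vehicle replicate 3). Over all genes the calls of this comparison were 5924, then 5080 with the replicate block and 4640 without KO vehicle replicate 3. For KO against flox under MTX the count was 0, but DESeq2 gave 4, dropping the low-count filter 1, a minimum of 10 counts per library 2, and the range was 0 to 5 when 1 library was left out (5 without flox MTX replicate 2). Over all genes, the calls went from 0 to 2769 of 16493 with DESeq2 and 875 of 34653 without a filter. They went to 1491 of 14132 with at least 10 counts and 4064 of 19532 without flox MTX replicate 2. For MTX in flox mice the count was 1, but 3 with library size as the only scaling, 0 with the replicate block, with the 6 libraries of the comparison alone, without flox vehicle replicate 3 and flox MTX replicate 1 together or at an adjusted p below 0.05, and 0 to 1 when 1 library was left out. The counts for MTX in KO mice and for the interaction were 0 in every alternative. Over all genes the calls reached 281 for MTX in KO mice (DESeq2) and 1371 for the interaction (without flox vehicle replicate 4). For the wider list under vehicle, 23 calls became 15 to 25 when 1 library was left out (15 without KO vehicle replicate 3). In KO against flox under MTX, 0 became 13 with DESeq2, 5 without a filter, 9 with at least 10 counts, 1 without flox vehicle replicate 3 and flox MTX replicate 1, and 0 to 20 when 1 library was left out. For MTX in flox mice, 17 became 8 with the replicate block, 7 with the 6 libraries alone, 8 without flox vehicle replicate 3 and flox MTX replicate 1, 11 at an adjusted p below 0.05, and 7 (without flox vehicle replicate 3) to 26 when 1 library was left out. For the interaction, 2 became 9 with DESeq2, 1 with library size, 4 without a filter, 0 with at least 10 counts, 0 with the replicate block, 1 without flox vehicle replicate 3 and flox MTX replicate 1, 0 with epididymis and testis genes left out of the scaling, 0 at an adjusted p below 0.05, and 0 to 12 when 1 library was left out. Over all genes, 185 calls became 1248 with DESeq2, 472 without a filter, 1 with at least 10 counts and 0 with the replicate block. Calls thus shifted over all genes and not in these genes alone. The labels do not say what libraries with equal replicate numbers share, and the cause of these shifts was not tested.

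Of the log2 fold changes of single members, 1028 kept their direction and their side of the limit over the alternatives, 29 fell below the limit, 18 passed it and 65 changed sign, all 65 among values that were not called. Under KO against flox with vehicle, Chac1 changed sign with the replicate block (0.045) and ranged from -0.25 to 0.03 when 1 library was left out, and Hspa5 was 0.08 without flox vehicle replicate 3 and flox MTX replicate 1 and ranged from -0.40 to 0.08. Under MTX, Chac1 was 0.0039 with the replicate block, 0.13 without those libraries and ranged from -0.61 to 0.15. For MTX in flox mice, Atf4 was 0.00063 without a filter, 0.033 without those libraries and ranged from -0.065 to 0.053. Ddit3 was -0.062 with library size, -0.17 without those libraries and ranged from -0.081 to 0.27. Trib3 was -0.073 with library size, -0.068 with the replicate block, -0.66 without those libraries and ranged from -0.45 to 0.37. Phgdh was 0.15 without those libraries and ranged from -0.65 to 0.22, Asns from -0.57 to 0.13 and Chac1 from -0.61 to 0.14. For MTX in KO mice the ranges were -0.0002 to 0.66 for Atf3, -0.096 to 0.033 for Atf4, -0.18 to 0.089 for Ddit3, -0.50 to 0.32 for Phgdh and -0.052 to 0.37 for Psat1. For the interaction, Atf4 was 0.16 with library size, 0.00078 with at least 10 counts and ranged from -0.093 to 0.05. Phgdh was 0.061 with library size, 0.065 with the replicate block and ranged from -0.46 to 0.44. Asns was -0.033 without a filter and ranged from -0.33 to 0.36. Chac1 was 0.046 with library size, 0.37 without those libraries and ranged from -0.50 to 0.24. Ddit3 was 0.12 without those libraries and ranged from -0.33 to 0.025, Trib3 was 0.41 and ranged from -0.62 to 0.19, and Sesn2 ranged from -0.15 to 0.46.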
